A study of Mus musculus with 96 samples.

Results

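Heart and skeletal muscle are both striated muscle, and this comparison asks which genes set them apart. It uses the 12 libraries of these tissues out of 96 libraries from 16 tissues, taken by their tissue labels as 6 heart libraries and 6 muscle libraries. In each tissue, 3 libraries came from wild-type (WT) mice and 3 from Scx-/- mice, which lack the tendon transcription factor Scleraxis, and all mice were 3 weeks old. Whole organs were frozen at necropsy, so each library averages over all cells of the piece, and the labels do not say which muscle or which part of the heart was taken. RNA was measured by MuSeq, in which every sample receives a barcode during reverse transcription and the samples are then pooled, so that reads come mainly from the 3′ ends of transcripts. In such bulk samples, fewer cells of a type and less RNA per cell cannot be told apart.

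The heart libraries held 11244 to 439907 counts and the muscle libraries 30409 to 871531. A library of WT heart (replicate 2, 11244 counts) and a library of WT muscle (replicate 1, 30409 counts) were far shallower than the others, with 2977 and 3385 genes detected against 6905 to 11171. Levels are given as CPM, the counts of a gene scaled to 1000000 counts in the library. Each gene was tested with edgeR's quasi-likelihood test with genotype as a covariate, a gene is called where the Benjamini-Hochberg adjusted p over all genes tested is under 0.05, and the log2 fold change (heart over muscle) is relative to TMM scaling. Nothing in the labels says which libraries came from the same mouse, so p-values measure the spread between these libraries.

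In both tissues contraction rests on the sarcomere, in which myosin thick filaments pull on actin thin filaments once calcium binds the troponin complex. Many of its proteins come in paralogs that are used either in the heart or in skeletal fibers, and skeletal fibers further differ as slow and fast. In heart muscle, calcium entering through the membrane opens the ryanodine receptor of the sarcoplasmic reticulum, whereas in skeletal fibers the membrane channel acts on its ryanodine receptor by contact. The heart beats continuously and burns mainly fatty acids, and fast skeletal fibers draw on glycogen and glycolysis.

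The tissue labels were first checked against 7 markers each. The heart markers Myh6, Tnnt2, Tnni3, Nppa, Myl7, Nkx2-5 and Mybpc3 together took 1.73% to 3.64% of counts in heart libraries and at most 0.0022% in muscle libraries. The muscle markers Myh4, Tnnt3, Tnni2, Acta1, Mylpf, Ckm and Actn3 took 20.8% to 25.3% in muscle and 0.319% to 0.467% in heart, and all 14 genes were called in the direction of their label. Scx itself was at 0 in all 6 heart libraries and in the 3 Scx-/- muscle libraries, and at 0, 12.6 and 14.8 CPM in WT muscle (replicates 1 to 3). With no count in either genotype, Scx cannot check the genotype labels in heart, and the counts in muscle (18 in 2 libraries) are too few for a call (adjusted p = 0.372).

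Of 15771 genes tested, 622 were called (3.94%). Among them 263 were higher in heart (1.67%) and 359 higher in muscle (2.28%), and the median log2 fold change over all genes tested was -0.41. This split depends on the scaling. With library totals in place of TMM factors, this median was 0.12 (the median shift of a gene was 0.49), and 576 genes were higher in heart against 282 in muscle. For 382 genes (2.42%) the CPM of the 6 heart libraries did not overlap those of the 6 muscle libraries, and 243 of these were also called. At 0 in every muscle library were 94 of the genes called higher in heart, and 121 of those called higher in muscle were at 0 in every heart library. Without the libraries under 50000 counts, 799 genes were called, 39.8% of them higher in heart.

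**Figure D1:**
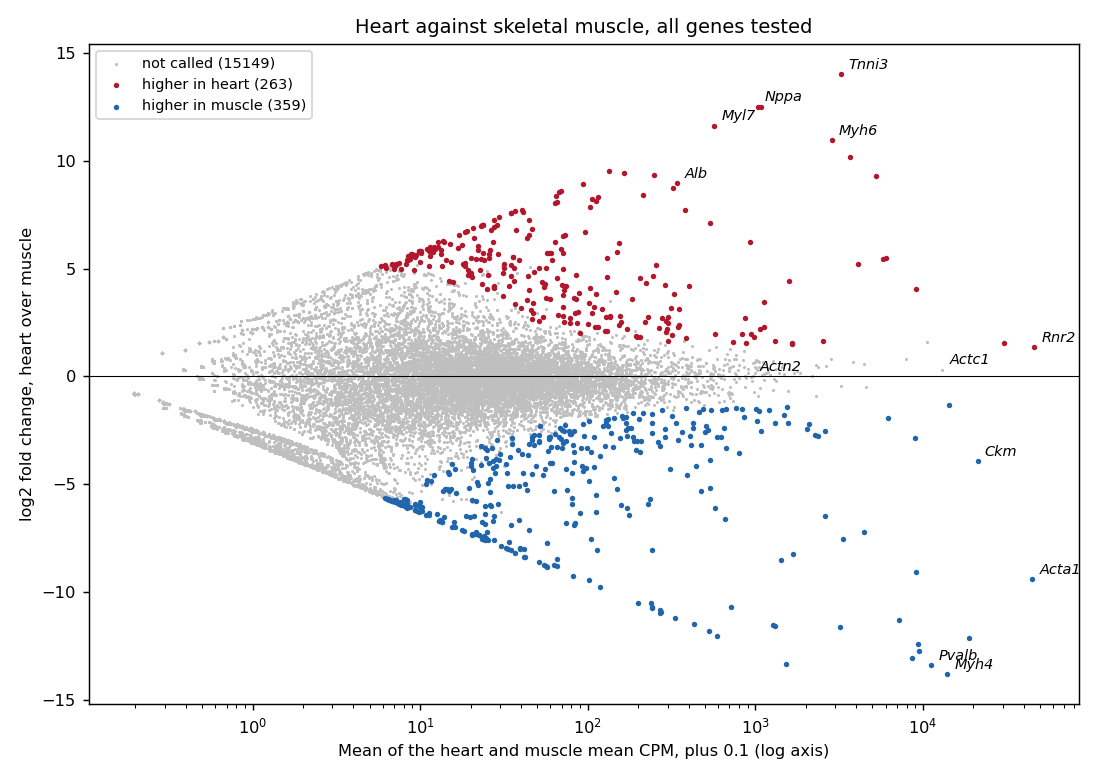
Each point is a gene, with the mean of its heart and muscle mean CPM plus 0.1 on the x axis (log axis) and its fitted log2 fold change on the y axis. Red points are the 263 genes called higher in heart, blue points the 359 called higher in muscle, and gray points the genes not called. Tnni3 lies highest, Myh4 lowest, and Actc1 and Actn2 lie close to 0.

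Many of the most extreme genes encode proteins of the sarcomere or of calcium handling. By the fitted log2 fold change, the 10 genes furthest toward heart, among called genes with no overlap between the tissues and a mean of at least 50 CPM, were Tnni3, Nppa, Mybpc3, Myl7, Myh6, Pln, Ahsg, Tnnt2, Alb and Frmd5. The 10 furthest toward muscle were Myh4, Pvalb, Myoz1, Tnnc2, Atp2a1, Tnnt3, Mylpf, Sypl2, Myh2 and Actn3. All but Ahsg, Alb and Frmd5 are genes of the contractile apparatus, of calcium handling or of cardiac hormone secretion. Frmd5, a cytoskeletal adaptor gene, had 88.9 to 292 CPM (median 168) in heart and 0 in muscle. Ahsg and Alb encode plasma proteins that the liver makes, and their values are given with the cell type markers.

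Troponin, the calcium switch of the thin filament, came from different genes in the tissues. Cardiac troponin I, Tnni3, had 7519.8, 2757 and 7072 CPM in WT heart and 8191, 6639 and 6949 CPM in Scx-/- heart, with no count in any muscle library. Over the pooled counts it was at least 9393-fold higher in heart (9475 against 0 counts, with a floor of 3 counts over the muscle libraries). Cardiac troponin T, Tnnt2, was present at 8596 to 12077 CPM (median 10544) in heart and 0 to 19.4 CPM (median 8.16) in muscle (log2 fold change 9.30 ± 0.58 (SE), adjusted p = 9.69e-56). The fast skeletal troponins ran the other way in every library. Tnnt3 had 15884 to 20631 CPM (median 19620.4) in muscle and 0 to 88.9 CPM (median 3.42) in heart (log2 fold change -12.43 ± 0.64 (SE), adjusted p = 9.43e-80), where the highest heart value is 1 count of the shallowest library. Tnni2 stood at 12564 to 17022 CPM (median 14119.5) in muscle against 0 to 36.5 CPM (median 1.14) in heart (log2 fold change -11.32 ± 0.61 (SE), adjusted p = 1.55e-72), and Tnnc2, the fast calcium-binding subunit, left 3 counts in heart against 66597 in muscle. Tnnc1, the calcium-binding subunit that heart and slow fibers share, was higher in heart (4.41 ± 0.51, adjusted p = 1.04e-15).

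The slow skeletal troponins lie beside the cardiac ones in the genome but were called in the opposite direction. Tnnt1 (slow troponin T, GRCm38 chr7:4504570-4516382, minus strand) lies 1922 bases from Tnni3 (chr7:4518305-4524229, minus strand). Tnnt1 reached 428, 275 and 700.2 CPM in WT muscle and 90.2, 45.3 and 43.9 CPM in Scx-/- muscle, and 0 to 50.1 CPM (median 13.4) in heart (log2 fold change -3.28 ± 0.65 (SE), adjusted p = 4.07e-05). On chromosome 1, Tnni1 (slow troponin I, chr1:135779434-135810989, plus strand) and Tnnt2 (chr1:135836354-135852260, plus strand) lie 25364 bases apart. Tnni1 was higher in muscle (6.93 to 379.7 CPM (median 93), against 0 to 9.09 CPM (median 0) in heart, log2 fold change -5.34 ± 0.94 (SE), adjusted p = 1.2e-06). In the fast pair, Tnni2 and Tnnt3, 54425 bases apart on chromosome 7, both members were higher in muscle.

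Of the 2 striated actins, only 1 separated the tissues by the test. Skeletal actin, Acta1, had 73449.6 to 106695 CPM (median 88349) in muscle and 36.5 to 425 CPM (median 153) in heart (log2 fold change -9.40 ± 0.49 (SE), adjusted p = 1.42e-77). Cardiac actin, Actc1, was abundant in both, at 11609 to 24707 CPM (median 16633) in heart and 4209 to 15945 CPM (median 8954) in muscle, and was not called (log2 fold change 0.31 ± 0.36 (SE), adjusted p = 0.702). It was called higher in heart with library totals (0.91, adjusted p = 0.0029). The coding sequences of Acta1 and Actc1 are nearly alike, so reads within them may have been assigned to either gene. Tropomyosin followed in part, with Tpm2 higher in muscle (-7.21 ± 0.52, adjusted p = 2.76e-41) and Tpm1, the form used by heart and fast fibers, only slightly so (-1.33 ± 0.37, adjusted p = 0.0104). The call of Tpm1 was lost with the replicate block (adjusted p = 0.0676) and without replicate 3 of Scx-/- heart or of WT muscle (adjusted p = 0.0596 and 0.0652).

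The thick filament showed the same exchange. The cardiac myosin heavy chain Myh6 had 4358 to 7034 CPM (median 5546) in heart and 0 to 5.77 CPM (median 0) in muscle (log2 fold change 10.96 ± 0.67 (SE), adjusted p = 4.92e-57). Myh4, the heavy chain of the fastest fibers, was at 20718, 25687 and 26831 CPM in WT muscle and 29391, 35439.7 and 29802 CPM in Scx-/- muscle, and its 3 heart counts gave a muscle over heart ratio of 12744 (95% counting interval 4361 to 61799.6). Myh1 and Myh2, heavy chains of other fast fibers, had 9631 and 3427 muscle counts against 1 and 0 in heart. Myh2, Myh1 and Myh4 stand in a row on the plus strand of chromosome 11, with 2534 and 13453 bases between neighbors, and all 3 were called higher in muscle. The embryonic and neonatal heavy chains Myh3 and Myh8 were called higher in muscle at low levels, 0 to 56.9 CPM (median 1.17) and 0 to 158 CPM (median 20), and were at 0 in heart.

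Myosin light chains and binding proteins are also encoded by paralogs. The regulatory light chain of fast fibers, Mylpf, had 32359 to 45976 CPM (median 37786) in muscle and 0 to 32 CPM (median 8.94) in heart (log2 fold change -12.12 ± 0.59 (SE), adjusted p = 1.84e-90), and the ventricular form Myl2 had 9160.4 to 15839 CPM (median 11273) in heart and 20.8 to 1085 CPM (median 139) in muscle (log2 fold change 5.50 ± 0.51 (SE), adjusted p = 5.3e-24). Mylf-ps, a processed pseudogene annotated on chromosome 12 and named here after its values were seen, carried 10693 muscle counts, and reads of the Mylpf family may have been split between both. Cardiac myosin binding protein C, Mybpc3, had 711 to 3497 CPM (median 2229) in heart and no count in muscle (at least 3152-fold higher). The fast form Mybpc2 was higher in muscle (-8.24 ± 0.60, adjusted p = 7.97e-40), and the slow form Mybpc1 had 452 to 923 CPM (median 663) in muscle and no count in heart (at least 293-fold higher). The plot of paralogs shows these values for each library.

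**Figure D2:**
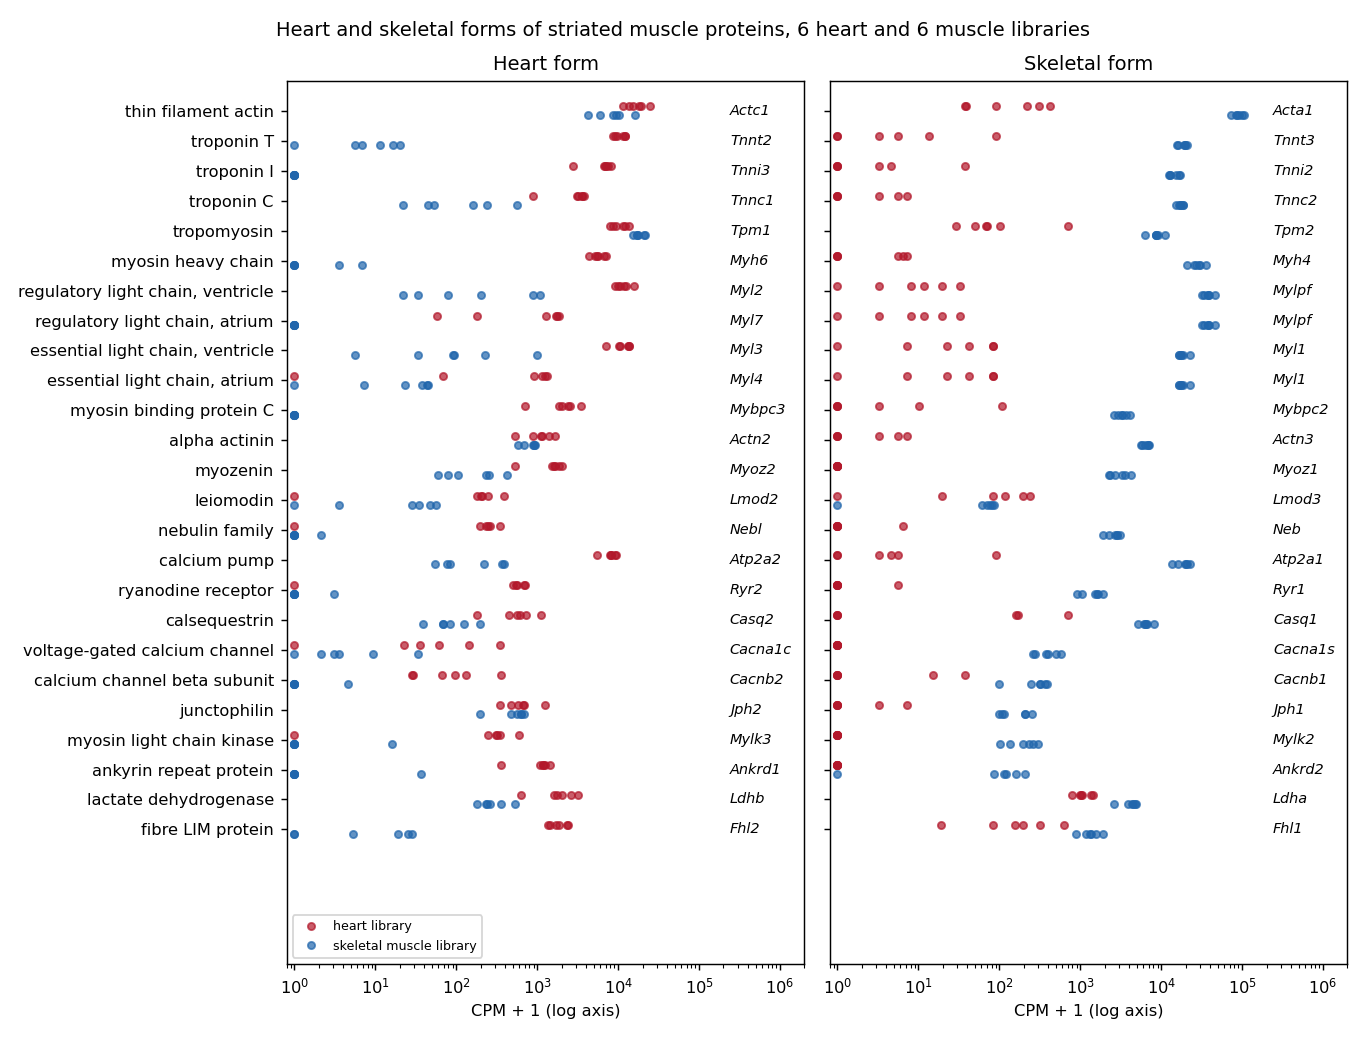
CPM + 1 on a log axis of the heart form (left) and the skeletal form (right) of proteins of striated muscle in the 6 heart libraries (red) and the 6 muscle libraries (blue), one point per library. In most rows the heart form lies higher in heart and the skeletal form higher in muscle. Actc1, Actn2, Jph2 and Lmod3 overlap between the tissues, and Tpm1 lies higher in muscle. Heart forms such as Ryr2, Nebl, Myl4 and Mylk3 overlap only where a heart library is at 0.

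Over the lists of contractile genes, 10 of 13 cardiac sarcomere genes were higher in heart (median log2 fold change 6.69, or 5.69 with genes at 0 in a tissue set to their bound) and none in muscle. Of 16 fast sarcomere genes, 15 were higher in muscle (median -11.56, or -10.85 with bounds). The fast genes took 23.0% to 27.5% of all counts in muscle and 0.0366% to 0.0889% in heart. Lmod3, a nucleator of thin filament actin, was the exception among the fast genes (0.23 ± 0.62, adjusted p = 0.883), and its sign changed in 2 alternatives. Among 7 slow skeletal genes, 5 were higher in muscle. Among 19 genes that both tissues use, 5 were called, all higher in muscle: Ttn, Ldb3, Pdlim3, Xirp2 and Fhl1. In this list 1 gene was higher in heart and 5 in muscle with library totals, 1 and 6 with DESeq2, and 1 and 7 without the libraries under 50000 counts. The call of Fhl1 was lost in each genotype alone (adjusted p = 0.141 in WT and 0.271 in Scx-/-). Titin, Ttn, the molecular spring of the sarcomere, had 7679.6 to 11312 CPM (median 9302) in muscle and 1423 to 3917 CPM (median 3619) in heart (log2 fold change -1.95 ± 0.39 (SE), adjusted p = 4.07e-05). Actn2, the Z-disc actinin of both tissues, had 534 to 1671 CPM (median 1135) in heart and 579 to 924 CPM (median 896) in muscle (adjusted p = 0.998), whereas the fast fiber form Actn3 left 3 counts in heart against 25060 in muscle.

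The promoters of 6 of these genes are printed to show which short motifs their proximal sequence holds, with 250 bases before the RefSeq start on the strand of the gene (GRCm38.p6). Capitals mark matches on either strand to any of these motifs. The E-box CAGCTG is of the kind that the MyoD family of myogenic factors binds. The motif AGATAA is bound by factors of the GATA family. The motif TNAAGTG is bound by homeobox factors of the NKX family. The motif CATTCCT is bound by TEAD factors, and the sequence TATAAA marks many core promoters. The MEF2 and CArG motifs, bound by MEF2 factors and serum response factor, were searched by their usual consensus, and a MEF2 match can share bases with a TATAAA match. The Tnni3 stretch held no match. At least the stretches of Tnni3 and Ckm lie within the spans that the GENCODE annotation gives these genes, so RefSeq and GENCODE start them at different bases. The first 3 genes were higher in heart and the last 3 in muscle.
Tnni3, chr7:4522529-4522778, minus strand: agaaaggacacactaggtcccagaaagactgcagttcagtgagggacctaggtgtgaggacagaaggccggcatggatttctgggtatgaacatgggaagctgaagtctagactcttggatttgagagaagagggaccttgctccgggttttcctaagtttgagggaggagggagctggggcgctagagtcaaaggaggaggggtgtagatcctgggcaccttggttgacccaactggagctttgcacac
Myh6, chr14:54966608-54966857, minus strand: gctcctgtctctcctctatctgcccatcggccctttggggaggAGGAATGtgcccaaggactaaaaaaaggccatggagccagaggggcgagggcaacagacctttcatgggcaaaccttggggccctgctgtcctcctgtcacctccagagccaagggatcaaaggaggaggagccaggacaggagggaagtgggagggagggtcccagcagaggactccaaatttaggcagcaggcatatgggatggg
Nppa, chr4:148000472-148000721, plus strand: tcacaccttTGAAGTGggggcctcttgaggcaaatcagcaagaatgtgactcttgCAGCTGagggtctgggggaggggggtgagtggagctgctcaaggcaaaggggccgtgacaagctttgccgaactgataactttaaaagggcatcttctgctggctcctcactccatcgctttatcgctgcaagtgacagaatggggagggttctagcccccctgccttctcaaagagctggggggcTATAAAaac
Myh4, chr11:67237562-67237811, plus strand: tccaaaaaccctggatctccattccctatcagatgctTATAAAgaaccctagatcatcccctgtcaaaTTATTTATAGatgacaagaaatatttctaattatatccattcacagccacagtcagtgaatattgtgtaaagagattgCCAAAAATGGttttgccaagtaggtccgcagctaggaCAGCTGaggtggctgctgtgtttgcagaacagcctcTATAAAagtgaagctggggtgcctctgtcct
Mylpf, chr7:127211358-127211607, plus strand: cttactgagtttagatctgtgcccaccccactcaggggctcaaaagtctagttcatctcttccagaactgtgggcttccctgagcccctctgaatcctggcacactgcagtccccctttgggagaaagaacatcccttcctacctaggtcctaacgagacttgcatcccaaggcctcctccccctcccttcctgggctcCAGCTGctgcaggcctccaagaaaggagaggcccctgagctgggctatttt
Ckm, chr7:19410844-19411093, plus strand: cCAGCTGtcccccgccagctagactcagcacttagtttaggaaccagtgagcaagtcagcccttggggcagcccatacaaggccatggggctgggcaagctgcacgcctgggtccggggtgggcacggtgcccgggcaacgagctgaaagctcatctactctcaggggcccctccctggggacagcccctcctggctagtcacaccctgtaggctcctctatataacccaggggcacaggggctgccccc

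Each of the 3 muscle promoters held CAGCTG, and so did that of Nppa. Among genes with a single RefSeq promoter, the motif was present in 24.0% of 192 genes called higher in muscle, 14.6% of 151 called higher in heart and 12.1% of 8964 genes tested, and in 12.7% of all 22862 promoters. AGATAA was present in 21.2% of the promoters of genes higher in heart, 5.73% of those higher in muscle, 6.27% of genes tested and 10.4% of all promoters. A MEF2 motif was found in 4.64% and 7.29% of the promoters of genes higher in heart and in muscle, against 2.01% of genes tested and 3.11% of all promoters. TNAAGTG was found in 2.65% of promoters of genes higher in heart, 8.33% of those higher in muscle, 7.6% of genes tested and 10.1% of all promoters. TATAAA was found in 17 of 151, 25 of 192, 657 of 8964 and 3101 of 22862 promoters of the same sets, and CATTCCT in 5.3%, 6.25%, 3.76% and 4.37%, and CArG in 2.65%, 1.56%, 1.19% and 1.38%. Among called genes with their highest mean of the 16 tissues in the tissue of the call, there were 70 promoters for heart and 94 for muscle. In these the MEF2 share was 8.57% for heart and 7.45% for muscle, the reverse of the order above, and each other motif kept its order. These shares describe letters in a window of 250 bases and were not tested.

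Calcium handling separated by paralog as well. The pump that refills the sarcoplasmic reticulum was Atp2a2 in heart, at 5425 to 9336 CPM (median 8213) against 54.3 to 392 CPM (median 149) in muscle (log2 fold change 5.21 ± 0.48 (SE), adjusted p = 1.12e-24), and Atp2a1 in muscle, at 13482 to 22625 CPM (median 20107) against 0 to 88.9 CPM (median 2.91) in heart (log2 fold change -12.72 ± 0.65 (SE), adjusted p = 1.16e-80). Phospholamban, Pln, which restrains the cardiac pump, had 6308 to 8673 CPM (median 7190.3) in heart and 0 to 9.23 CPM (median 2.97) in muscle (log2 fold change 10.17 ± 0.63 (SE), adjusted p = 5.31e-56). Sarcolipin, Sln, another small pump inhibitor, varied in both tissues, at 493, 623 and 0 CPM in WT heart, 991, 601 and 1158 in Scx-/- heart, 98.7, 24.1 and 105 in WT muscle and 405, 1033 and 589 in Scx-/- muscle, and was not called (adjusted p = 0.533).

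The release channel was Ryr2 in heart (0 to 707 CPM (median 556), 1 count in muscle) and Ryr1 in muscle (913 to 1900.0 CPM (median 1559), 1 count in heart). The membrane calcium channel subunit Cacna1s was found only in muscle libraries, at 263 to 574 CPM (median 387) and 0 in heart (at least 183-fold higher), and its cardiac paralog Cacna1c was higher in heart (log2 fold change 4.13 ± 0.99 (SE), adjusted p = 0.00145). The call of Cacna1c was lost without replicate 2 of Scx-/- heart (adjusted p = 0.0741), with the replicate block (0.091) and in WT alone (0.649). Slc8a1, the sodium-calcium exchanger that clears calcium from the heart cell, had 207 to 1156 CPM (median 385) in heart and 0 to 32.9 CPM (median 5.8) in muscle. Pvalb, the calcium buffer that speeds relaxation of fast fibers, had 19139 to 26232 CPM (median 22211) in muscle and 0 to 88.9 CPM (median 1.14) in heart. Of 14 cardiac calcium handling genes, 7 were higher in heart and 1 in muscle, and of 17 skeletal ones, 15 were higher in muscle. The gene higher in muscle from the cardiac list was Asph, the junctional protein gene, at the edge of the threshold (-1.49 ± 0.48, adjusted p = 0.0497), and in 15 of the 25 alternatives run no gene of this list was called higher in muscle. Jph2, which ties the membrane to the reticulum, overlapped between the tissues (-0.48 ± 0.45, adjusted p = 0.62, and 0.22 with library totals).

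The membrane and the contacts between cells differed in the same manner. Of 15 cardiac ion channel genes, 7 were higher in heart and none in muscle, among them Kcne1, Kcnj3, Kcnj5, Kcnd2, Kcnip2 and Gja1. Kcnip2, a subunit of the transient outward potassium channel, had 88.9 to 339 CPM (median 244) in heart and 1 count in muscle. Scn4a, the sodium channel of skeletal fibers, had 0 to 217 CPM (median 151) in muscle and 0 to 32.3 CPM (median 5.83) in heart. Of 12 genes of muscle excitation and the neuromuscular junction, 6 were higher in muscle, among them the chloride channel Clcn1 (38.8 to 164 CPM (median 61.4), 0 in heart) and the acetylcholine receptor subunit Chrna1 (0 to 58.1 CPM (median 47.3), 0 in heart). The intercalated disc, which couples heart cells end to end, had 8 of 11 genes higher in heart. Desmoplakin, Dsp, which anchors desmosomes, reached 0 to 1488 CPM (median 747) in heart and 0 to 14.2 CPM (median 0) in muscle (log2 fold change 7.70 ± 0.71 (SE), adjusted p = 1.49e-24), and the gap junction gene Gja1 420.2 to 826 CPM (median 627) and 11.5 to 65.8 CPM (median 32.6) (log2 fold change 3.82 ± 0.57 (SE), adjusted p = 2.73e-09). The muscarinic receptor gene Chrm2, which slows the heart, had 53.9 to 267 CPM (median 109) in heart and none in muscle. Of 16 genes of the dystrophin complex and related genes, 1 was called, the muscle protease gene Capn3, higher in muscle (log2 fold change -4.32 ± 0.89 (SE), adjusted p = 7.77e-05), against 4 genes without the libraries under 50000 counts and 2 with DESeq2. The median of this list was -0.50 with TMM scaling and 0.11 with library totals.

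Many of the transcription factors that direct each lineage were called, although at low levels. Of 16 cardiac factors, 10 were higher in heart and none in muscle: Nkx2-5, Gata4, Gata6, Tbx5, Tbx20, Hand2, Irx3, Irx4, Myocd and Hopx. Hand2, a basic helix-loop-helix factor of heart development, had 52.3 to 215 CPM (median 139.5) in heart and 0 in muscle (at least 156-fold higher), and Tbx20, a T-box factor, 63.6 to 267 CPM (median 114) and 0. Nkx2-5, which acts early in the cardiac lineage, had 0 to 124 CPM (median 82.2) in heart and 0 in muscle, with the 0 in the library of 11244 counts. Of 15 skeletal factors, 8 were higher in muscle, among them Myod1, Myf6, Myog, Eya4, Lbx1, Tbx15 and Maf. The myogenic factor Myod1 had 40.4 to 146 CPM (median 51.1) in muscle and 0 in heart (at least 26.2-fold higher), and Tbx15, a T-box factor of fast fibers, 32.9 to 272 CPM (median 164) and 0. Tcf21 of the same list, a factor also known from fibroblasts and epicardium, was higher in heart (60 against 2 counts).

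Factors used by both tissues mostly did not pass the test. Of 13 such genes, Mef2c, Mkl1 and Nfix were higher in muscle and none in heart, a split that changed to 2 in heart and 1 in muscle with library totals, 2 and 3 with RLE factors and with DESeq2, and 2 and 2 without the libraries under 50000 counts. Mef2c stood at 321 to 822 CPM (median 386) in muscle and 0 to 200.2 CPM (median 52) in heart (log2 fold change -3.03 ± 0.55 (SE), adjusted p = 3.24e-06). The metabolic coactivator gene Ppargc1a had 0 to 215 CPM (median 113) in heart and 0 to 42.7 CPM (median 17.8) in muscle without being called (adjusted p = 0.0613). Among 24 Hox genes, which mark position along the body axis, Hoxc10, Hoxd8 and Hoxd9 were higher in muscle. Hoxc10 had 428, 59.7 and 25.3 CPM in WT muscle and 89, 77.7 and 109.7 CPM in Scx-/- muscle, with no count in heart.

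Genes of energy metabolism were called in both directions. Of 36 genes of glycogen use and glycolysis, 17 were higher in muscle and 4 in heart (median log2 fold change -1.94, and 16 and 4 genes with library totals). Aldolase, Aldoa, had 10497 to 17050.0 CPM (median 15845) in muscle and 2146 to 4121 CPM (median 3050.0) in heart (-2.86 ± 0.40), and Pgam2, the muscle phosphoglycerate mutase, 3617 to 4199.9 CPM (median 3953) and 711 to 980.5 CPM (median 844) (log2 fold change -2.77 ± 0.43 (SE), adjusted p = 1.11e-08). Slc16a3, which exports lactate, was higher in muscle (151 to 374 CPM (median 185), against 0 to 28.4 CPM (median 0)), and Slc16a1, which takes lactate up, was higher in heart (127 to 344 CPM (median 201), against 14.2 to 56.9 CPM (median 34.8)). Lactate dehydrogenase split by subunit in the same way, with Ldha at 2598 to 4809.9 CPM (median 4383) in muscle and 798 to 1415 CPM (median 1040.2) in heart (log2 fold change -2.53 ± 0.42 (SE), adjusted p = 1.85e-07) and Ldhb at 623 to 3155 CPM (median 1890.2) in heart and 179 to 526 CPM (median 250.3) in muscle (log2 fold change 2.30 ± 0.45 (SE), adjusted p = 3.05e-05). Pygb and Hk1 were the other genes of this list that were higher in heart.

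Of 31 fatty acid oxidation genes, 5 were higher in heart (Lpl, Hadhb, Ech1, Acaa2 and Etfdh) and none in muscle (median 0.97). Lpl, which frees fatty acids from lipoproteins, had 2312 to 4908 CPM (median 4351) in heart and 445 to 1289.7 CPM (median 985) in muscle (log2 fold change 1.62 ± 0.41 (SE), adjusted p = 0.00396). The number called was 17 with library totals and 14 without the libraries under 50000 counts, and the median was 1.60 and 0.95. Oxct1, which lets tissues use ketone bodies, was higher in heart (log2 fold change 1.99 ± 0.49 (SE), adjusted p = 0.00249), as were Idh2 and Mdh1 of 25 citric acid cycle genes. In the latter list 6 were higher in heart with library totals, 4 with DESeq2, and 5 without the libraries under 50000 counts, with 1 higher in muscle. The nuclear genes of the respiratory chain took 6.95% to 10.1% of counts in heart and 4.51% to 4.90% in muscle. Of these 74 genes 1, Atpif1, an inhibitor of the ATP synthase, was called higher in heart (median 0.32), near the share of 1.67% over all genes tested. The number was 20 with library totals and 10 without the libraries under 50000 counts. The mitochondrial ribosomal RNAs Rnr1 and Rnr2 were among the 5 genes with the highest mean CPM, with Acta1, Ckm and Mylpf. Rnr2 stood at 53831 to 91994 CPM (median 74976) in heart and 12667 to 25932 CPM (median 19057) in muscle (log2 fold change 1.35 ± 0.35 (SE), adjusted p = 0.00439). The calls of Rnr2 and Rnr1 were lost with the replicate block (adjusted p = 0.139 and 0.0908), in WT alone (0.567 and 0.455) and in the test against a log2 fold change of 1 (0.414 and 0.233).

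Of 12 genes of the creatine and adenylate list, which also holds myoglobin, 4 were higher in muscle (Ckm, Ak1, Ampd1 and Adssl1), 1 in heart (Mb) and 7 were not called (median log2 fold change -0.85). Myoglobin, Mb, had 14229.8 to 20994 CPM (median 16479) in heart and 197 to 3058 CPM (median 712) in muscle (log2 fold change 4.04 ± 0.44 (SE), adjusted p = 6.33e-18). Muscle creatine kinase, Ckm, was 10.4-fold higher in muscle over the pooled counts but was also expressed in every heart library, at 3141 to 4548 CPM (median 3568) against 30396 to 46107 CPM (median 39549) in muscle (log2 fold change -3.92 ± 0.40 (SE), adjusted p = 1.26e-20). AMP deaminase 1, Ampd1, had 382 to 667 CPM (median 431) in muscle and none in heart (at least 190.4-fold higher). Growth regulators were called in muscle for 5 of 9 genes. Myostatin, Mstn, which limits muscle mass, had 24.2 to 164 CPM (median 56.1) in muscle and 0 in heart, and Igf2 had 359 to 1609 CPM (median 1113) in muscle and 0 to 369 CPM (median 261) in heart (log2 fold change -2.83 ± 0.48 (SE), adjusted p = 3.21e-07). Of 18 ubiquitin ligase and Kelch genes of muscle, 5 were higher in muscle and none in heart (7 and 2 without the libraries under 50000 counts), including Klhl41 (-3.23 ± 0.55, adjusted p = 6.51e-07).

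**Figure D3:**
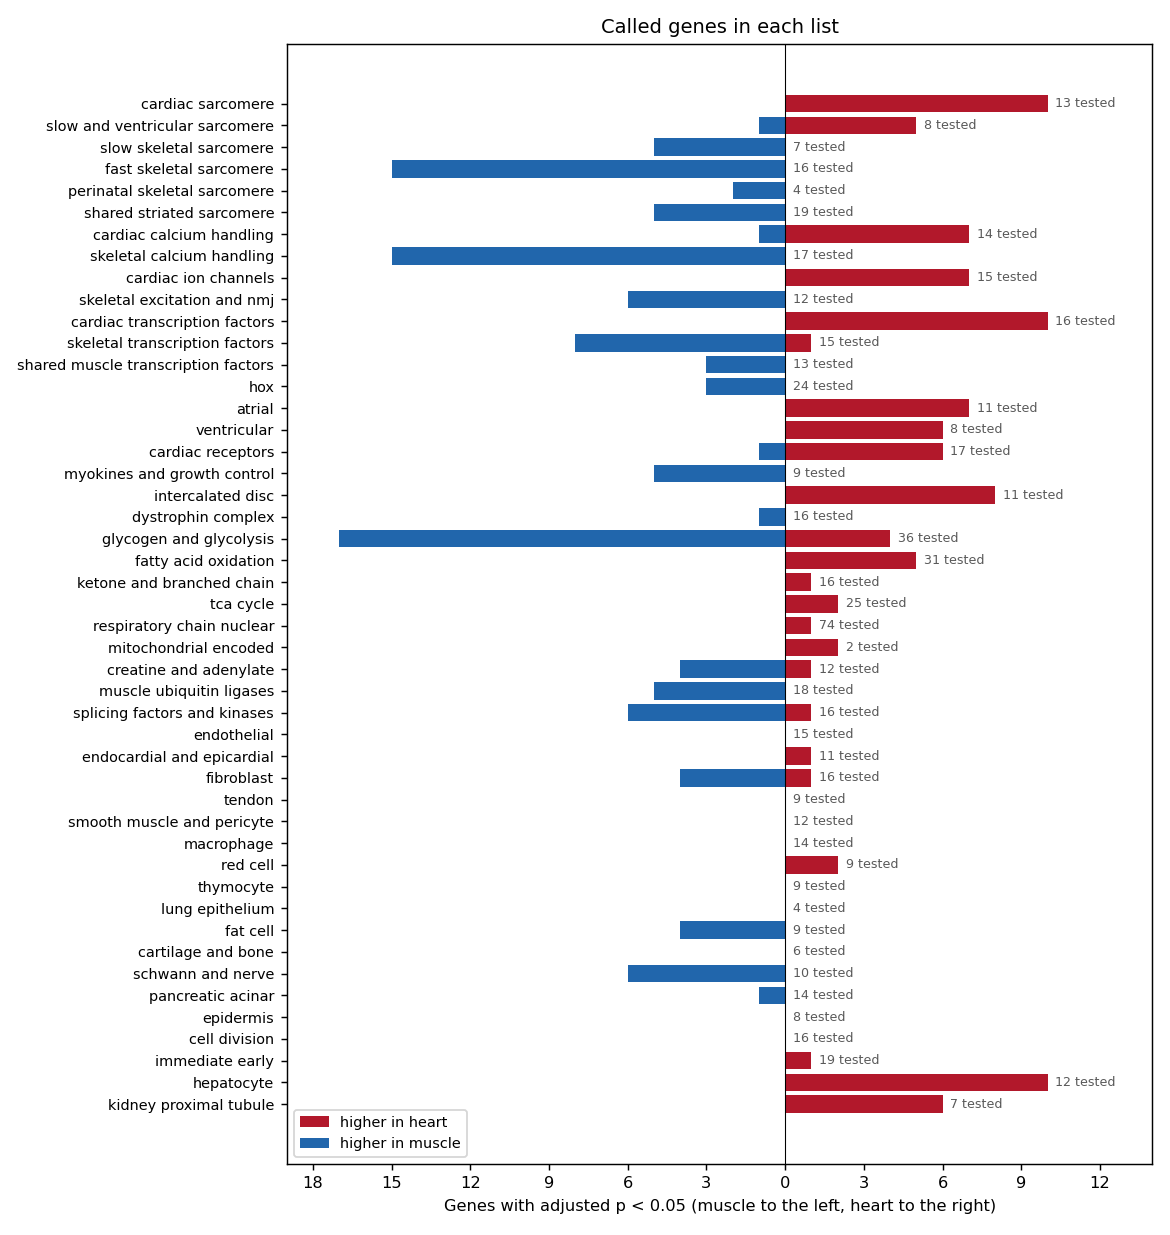
For each list, the number of genes called higher in heart (red, to the right) and in muscle (blue, to the left), with the number tested beside the bar. Fast sarcomere, skeletal calcium handling and glycolysis genes extend furthest left, and cardiac sarcomere and cardiac transcription factor genes furthest right among the muscle lists.

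Heart libraries differed from one another in the genes of the atria. Of 11 atrial genes 7 were called higher in heart, and of 8 ventricular genes 6. Nppa, which encodes the atrial natriuretic peptide, had 1614, 178 and 92.4 CPM in WT heart and 4077, 2747 and 3739 CPM in Scx-/- heart, with no count in muscle. Myl7, the atrial regulatory light chain, had 1753, 178 and 56.8 CPM in WT heart and 1858, 1283 and 1702 CPM in Scx-/- heart. Myl4, the atrial essential light chain, had 918, 0 and 67.5 CPM in WT heart and 1306, 1151 and 1228 CPM in Scx-/- heart. In these 3 genes, replicates 2 and 3 of WT heart lay below the other 4 heart libraries. Sln, also on the atrial list, did not follow, since replicate 2 of WT heart (623 CPM) lay above replicate 1 (493 CPM) and only replicate 3 was low, at 0. By contrast, the ventricular light chain Myl2 stayed within 9813, 9160.4 and 11959 CPM in WT heart and 15839, 12553 and 10586 CPM in Scx-/- heart. Without replicates 2 and 3 of WT heart, 518 genes were called in all, and Myl3, a ventricular light chain gene with 7026 to 13735 CPM (median 11787) in heart and 4.62 to 981 CPM (median 90.3) in muscle (log2 fold change 5.45 ± 1.04 (SE), adjusted p = 0.00752), lost its call (adjusted p = 0.0586). Without the libraries under 50000 counts, Nppa and Myl7 were not called (adjusted p = 0.104 and 0.142), although their log2 fold changes remained at 12.85 and 12.01.

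Whether the difference between the tissues depended on genotype was tested by the interaction of tissue and genotype. Of 15771 genes 4 were called (0.0254%), and 817 had an unadjusted p under 0.05. The 817 are near the share of 0.05 that this threshold passes where no gene differs. The value given for each called gene is the log2 fold change of heart over muscle in Scx-/- mice minus that in WT mice. Myh7, the slow heavy chain of the ventricle and of slow fibers, had 68.2, 0 and 3.55 CPM in WT heart and 899, 3116 and 3480.1 CPM in Scx-/- heart, and 98.7, 157 and 470.3 CPM in WT muscle and 81.9, 54.4 and 5.77 CPM in Scx-/- muscle (difference 8.12 ± 1.09 (SE), adjusted p = 1.78e-09). All Scx-/- heart libraries lay above all WT heart libraries, and all Scx-/- muscle libraries lay below all WT muscle libraries. Myh7 lost the call without replicate 2 of WT heart (difference 7.92, adjusted p = 0.0567) and without the libraries under 50000 counts (difference 8.29, adjusted p = 0.965), with a difference about as large. Myh7 (chr14:54970684-54994626, minus strand) overlaps the antisense gene Mhrt (chr14:54968678-54974349, plus strand) over 3666 bases, which include the 3′ end of Myh7. It is not given whether the counting used strand, so reads within these shared bases may have been assigned to either gene or to neither. Mhrt, named after its values were seen, had 145, 0 and 142 CPM in WT heart and 18.3, 75.1 and 102 CPM in Scx-/- heart.

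Casq1, the calcium store of fast fibers, was found in each WT heart library, at 161, 711 and 170.5 CPM, and in no Scx-/- heart library, and had 8155, 6761 and 6369.7 CPM in WT muscle and 6069, 6572 and 5146 CPM in Scx-/- muscle (difference -9.21 ± 1.44 (SE), adjusted p = 1.26e-06). This call held in all 18 alternatives of the interaction test. Myl2 differed mainly in muscle, with 1085, 201 and 875 CPM in WT muscle and 77.1, 32.4 and 20.8 CPM in Scx-/- muscle (difference 3.94 ± 0.84 (SE), adjusted p = 0.013), and was not called in 7 of the alternatives, including those without replicate 3 of WT muscle (difference 3.36, adjusted p = 0.467) and without the libraries under 50000 counts (difference 3.49, adjusted p = 1). Of the 7 slow skeletal genes, Tnnt1 and Tnni1 also had lower values in each Scx-/- than in each WT muscle library. Neither was called by the interaction, and the genotypes were not tested against each other within muscle alone. Others such as Mybpc1 overlapped between the genotypes (592, 612 and 715 CPM in WT and 923, 714 and 452 CPM in Scx-/- muscle). Ankrd1, a stress-responsive titin-binding protein gene of the heart, rested on a single library. It had 0, 0 and 35.9 CPM in WT muscle, 0 in Scx-/- muscle, and 1187, 1067 and 355 CPM and 1256, 1420.5 and 1169 CPM in WT and Scx-/- heart (difference 6.48 ± 1.46 (SE), adjusted p = 0.0361), and without replicate 3 of WT muscle the difference was 0.71. The next gene in order of p, 5031434O11Rik, was not called (adjusted p = 0.0522) and had counts in 3 of 12 libraries.

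**Figure D4:**
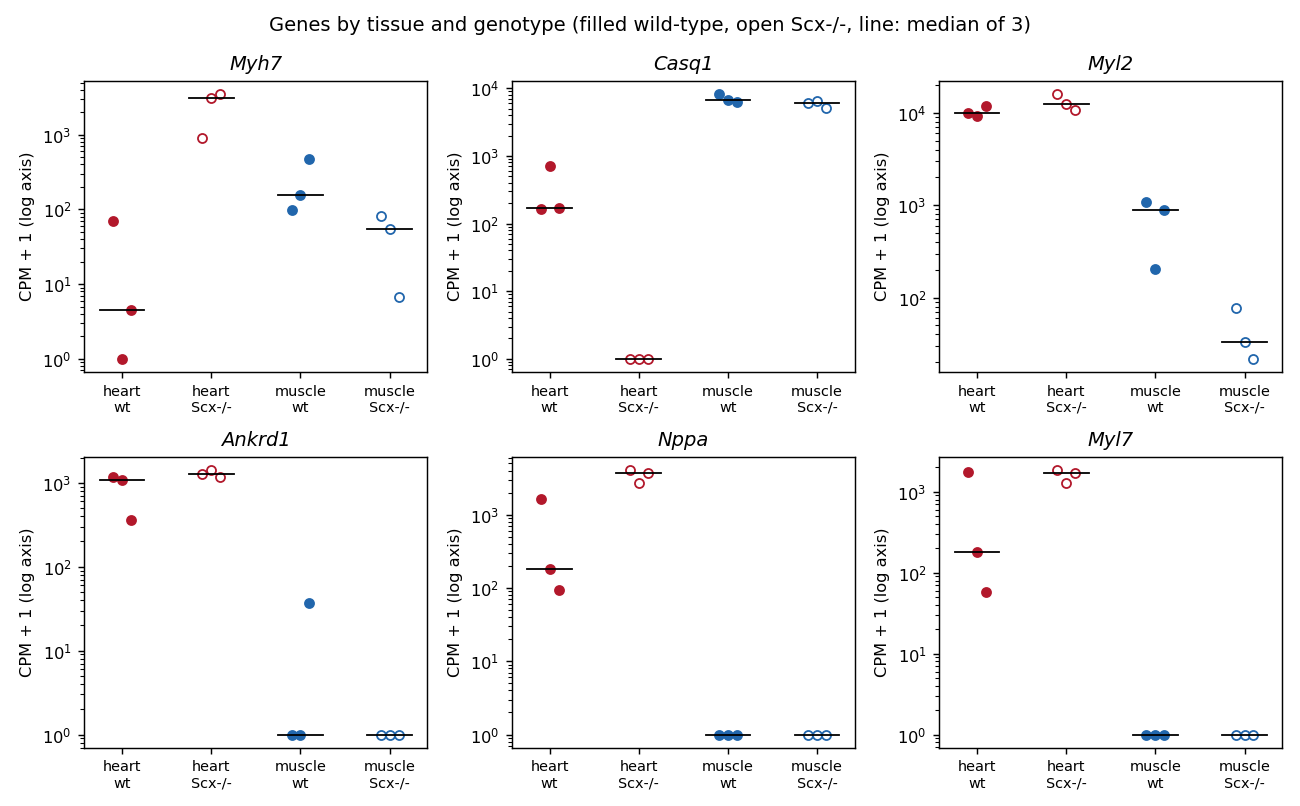
CPM + 1 on a log axis of 6 genes in the 3 libraries of each tissue and genotype (red heart, blue muscle, filled WT, open Scx-/-), with the line at the median. Myh7 is higher and Casq1 is at 0 in Scx-/- heart, Myl2 is lower in Scx-/- muscle, Ankrd1 stands above 0 in 1 muscle library, and Nppa and Myl7 are low in 2 of 3 WT heart libraries.

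Fitted within a genotype, the comparison gave 111 calls in WT and 541 in Scx-/- mice. They shared 95 genes, which are 85.6% of the WT calls and 17.6% of the Scx-/- calls, and all 95 had the same direction. The 2 shallow libraries are both WT.

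Markers of other cell types were counted to show what else the libraries hold. Of 10 Schwann cell and nerve genes, 6 were higher in muscle. Mbp, myelin basic protein, had 104 to 691 CPM (median 323) in muscle and 0 to 16.2 CPM (median 0) in heart (log2 fold change -6.42 ± 0.76 (SE), adjusted p = 5.6e-15). Of 9 fat cell genes, 4 were higher in muscle (2 with DESeq2), with 0 to 0.193% of counts in muscle and 0 to 0.0111% in heart. Of 16 fibroblast genes, Col1a1, Col1a2, Col3a1 and Postn were higher in muscle and Mgp in heart, and Col1a1 had 1316 to 6935 CPM (median 3351) in muscle and 404 to 2401 CPM (median 665) in heart (log2 fold change -2.71 ± 0.43 (SE), adjusted p = 3.84e-08). Without the libraries under 50000 counts, 7 fibroblast genes were higher in muscle and 2 in heart. The fibroblast list as a whole took 0.83% to 1.52% of counts in heart and 0.87% to 2.09% in muscle. Of 9 red cell genes 2 were higher in heart, against 1 with RLE factors or without the libraries under 50000 counts and 0 with DESeq2. Of 14 pancreatic acinar genes 1 was higher in muscle, against 3 with RLE factors and 0 without the libraries under 50000 counts. This list took 0.00945% to 0.174% of muscle counts, the most in replicate 1 of WT muscle, and 0 to 0.0445% of heart counts. Of 11 endocardial and epicardial genes 1 was higher in heart, against 0 with DESeq2. None of 93 genes in the 9 lists of endothelial, smooth muscle and pericyte, macrophage, tendon, dividing, thymocyte, lung epithelial, cartilage and bone, and epidermal genes was called by edgeR with TMM scaling. Of these, 11 had an unadjusted p under 0.05, and DESeq2 called 1. Over all 15771 genes tested, edgeR called 3.94%, 2351 had an unadjusted p under 0.05, and DESeq2 called 814. In the 9 lists edgeR called 1 endothelial and 1 smooth muscle gene with library totals, and 1 endothelial and 1 tendon gene without the libraries under 50000 counts. The part of these cells in the results was not tested.

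Genes of liver and kidney were present in heart libraries. These lists were written after the values were seen. Of 12 hepatocyte genes, 10 were called higher in heart, and the list took 0.072% to 0.293% of heart counts and 0.00148% to 0.00929% of muscle counts, against 17.1% to 21.9% in liver. Albumin, Alb, had 623, 1067 and 920.0 CPM in WT heart and 269, 282 and 948 CPM in Scx-/- heart, and 2 counts in muscle. Ahsg had 252, 534 and 423 and 224, 138 and 393 CPM, and its counts were 0.461 times those of Alb in heart and 0.395 times in liver. Alb was also found in all 6 libraries of adipose, cartilage, lung, spleen and stomach. Of 7 kidney tubule genes 6 were called, but 4 with DESeq2 and 2 without the libraries under 50000 counts. The list took 0.872% of counts in replicate 2 of WT heart, the library of 11244 counts, against a median of 0.017% over the heart libraries. Kap, a gene of the proximal tubule, had 54.6, 3646 and 114 CPM in WT heart and 18.3, 25 and 10.8 CPM in Scx-/- heart. Among the 263 genes called higher in heart, 122 had their highest mean level of the 16 tissues in heart, 36 in liver and 24 in kidney. Among the 359 called higher in muscle, 161 had it in muscle and 40 in cartilage. Without genes that are highest in liver or kidney, 540 genes were called. The source of these counts was not tested.

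The markers of both tissues were then read in all 16 tissues, as a description. The 7 heart markers had a median of 3.01% of counts in heart, 0.0909% in bladder, and at most 0.0355% in each of the other tissues. The muscle markers had a median of 23.9% in muscle, 12.1% in cartilage, 5.44% in bone, 0.569% in rectum and 0.386% in heart. Acta1 had 51956 to 61950.0 CPM (median 56559) in cartilage and 7489 to 36573 CPM (median 22341) in bone, against 36.5 to 425 CPM (median 153) in heart. Among the heart markers, Tnnt2 had 613 to 1598 CPM (median 901) in bladder, and Tnni3 256 to 434 CPM (median 296) in stomach.

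**Figure D5:**
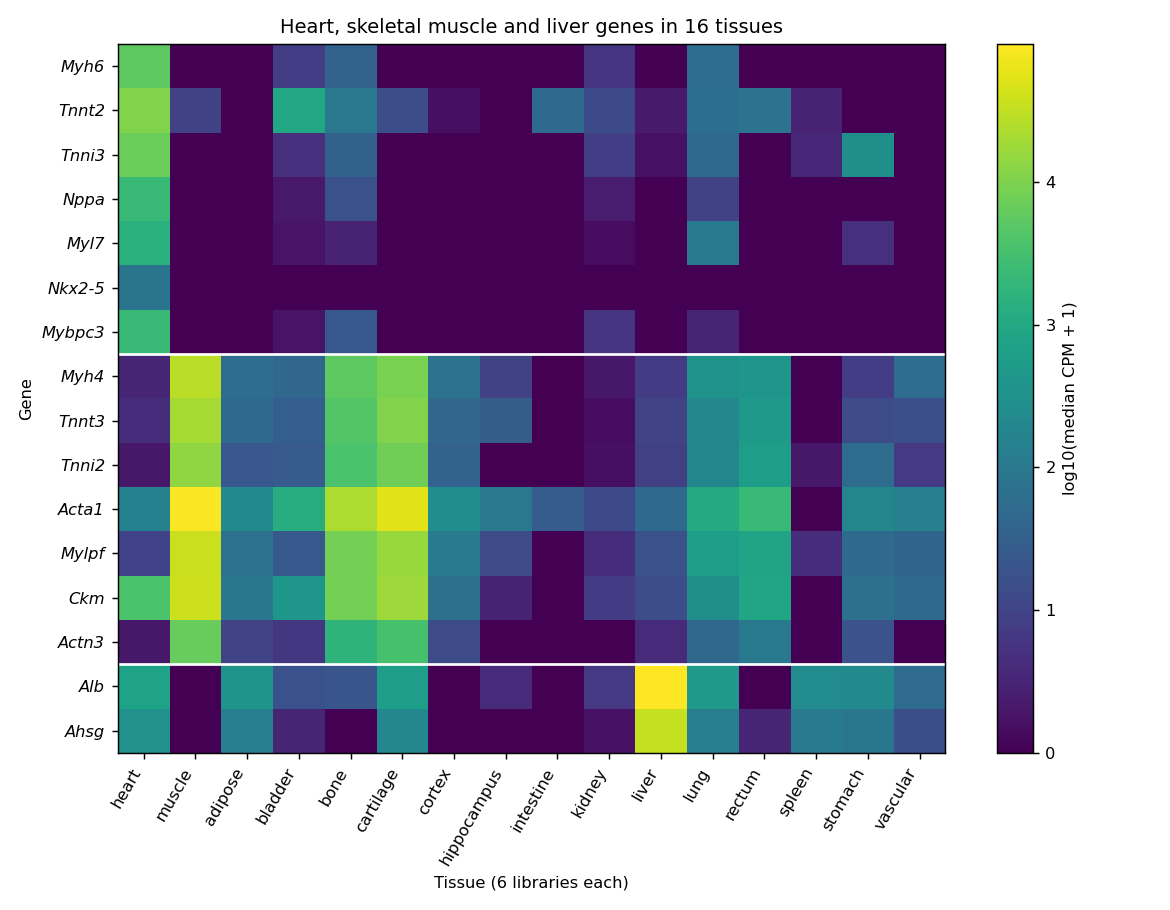
Median CPM over 6 libraries (color, log10 of CPM + 1) of 7 heart markers, 7 muscle markers, Alb and Ahsg (rows) in 16 tissues (columns). Heart markers are brightest in heart, with Tnnt2 also in bladder and Tnni3 in stomach, muscle markers are bright in muscle, cartilage and bone, and Alb and Ahsg are brightest in liver and visible in heart.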

How the data were processed

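Bulk RNA of 6 heart and 6 muscle libraries (3 WT and 3 Scx-/- each) was compared. The authors extracted total RNA with Trizol, prepared the libraries with Nextera XT, aligned reads to mm10 with Bowtie2 at default settings and counted them with HTSeq, and the deposited values are these raw counts per gene symbol. Per the labels and methods, the series is described both as 3′-enriched MuSeq and as based on Smart-seq2. The sources used here give no tool versions, annotation, strand setting or molecular identifiers. Conditions were taken from sample titles, and every column was mapped.

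From the counts of 41575 genes, those at 0 in all 12 libraries were removed, leaving 15771. edgeR 4.0.16 (R 4.3.3) was used with TMM factors, robust estimation and glmQLFTest, with genotype as a covariate or, for the difference by genotype, with the interaction. DESeq2 1.42.0 was an alternative. The counts of replicates differed beyond sampling noise (chi-square of 6.93 to 12.6 for each degree of freedom), so none was a duplicate. Folds against 0 counts use a floor of 3 counts over the tissue, and intervals (95%, exact) cover counting error only. Figures were drawn with Python 3.11.15 and matplotlib 3.10.9. Promoters are from RefSeq and gene positions from GENCODE, both GRCm38. The fit was tested on simulated data. The comparison and the gene lists were chosen with earlier results of these data known. Genes named are members of the lists or paralog pairs (by counts or role), the 10 largest changes in each direction, the 5 lowest p-values of the interaction, the 5 highest mean levels and Scx.

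Alternatives were RLE factors, library totals, filterByExpr, DESeq2, a replicate block, no covariate, each genotype alone, libraries of at least 50000 counts, thinning to 100000 counts, a test against a log2 fold change of 1 and leaving out each library. Leaving out genes highest in liver or kidney, and leaving out replicates 2 and 3 of WT heart, were added after the data were seen. Some genes of the lists are counted in them but not reported here by name.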

Additional observations from a re-analysis of the deposited data

Results flagged for a closer look

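The interaction test of tissue and genotype called 4 of 15771 genes. The log2 fold change in Scx-/- mice minus that in WT mice was 8.12 for Myh7, -9.21 for Casq1, 3.94 for Myl2 and 6.48 for Ankrd1. Myh7 was higher in Scx-/- heart (mean 23.9 CPM in WT and 2499 CPM in Scx-/-) and lower in Scx-/- muscle (mean 242 and 47.3 CPM), and without replicate 2 of WT heart, the library of 11244 counts with none of Myh7, the difference was 7.92 and the call was lost. Casq1 differed mainly in heart (mean 348 CPM in WT and 0 in Scx-/-). Myl2 differed mainly in muscle, and the call of Ankrd1 rests on 1 library of WT muscle.

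Outside the comparison, 2 heart markers had more than 3 counts in all 6 libraries of another tissue and lay above the highest muscle library in each. Tnnt2 had a median of 901 CPM in bladder, and Tnni3 had a median of 296 CPM in stomach. Myl7 was detected in all 6 lung libraries as well (median 108 CPM), but with more than 3 counts in 5 of them.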

How the results depend on the processing

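The called genes that each of the 25 alternatives could fit (495 to 622 of 622) all kept their direction. The number called was 344 with the replicate block and 111 with WT libraries alone, and 471 to 679 when 1 library was left out. Higher in heart were 576 genes with library totals, 137 with the block and 50 in WT alone (195 to 269 without 1 library). Higher in muscle were 207 with the block and 61 in WT alone (276 to 422 without 1 library). The interaction called 14 genes with RLE factors, 19 with library totals, 2 with the block, 8 without the libraries under 50000 counts, and 2 to 5 without 1 library. The cause was not tested. Ankrd1 lost its interaction call in 11 of 18 alternatives, Myl2 in 7 and Myh7 in 2.

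Replicate numbers were not taken to pair the libraries, and whether they do is not known. Deviations of same-numbered heart and muscle libraries from their group means correlated at -0.0268 to 0.0512 (6 pairs, 5574 genes), and 8 of 12 libraries, all 6 of Scx-/- among them, correlated best with their own number.

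Among named genes without a call, Actn2 (-0.0024) was 0.024 with RLE factors, 0.495 with library totals, 0.102 with filterByExpr, 0.052 with DESeq2, 0.150 in WT alone, 0.090 without the libraries under 50000 counts, 0.184 thinned, 0.011 without genes highest in liver or kidney, 0.088 without replicates 2 and 3 of WT heart, and -0.171 to 0.185 without 1 library. Jph2 (-0.48) was 0.22 with library totals, and Lmod3 (0.23) was -0.036 with the block and -0.00092 to 0.469 without 1 library. The depth of 11244 and 30409 counts in 2 libraries limits what can be seen of genes at low level.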
